A study of Mus musculus with 2 samples.

Results

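CXC chemokines are small secreted proteins that steer white blood cells, and each acts through a CXC receptor on the cell that moves. The family was taken here as 10 genes, chosen by name: the chemokines Cxcl1, Cxcl2, Cxcl9, Cxcl10, Cxcl12 and Cxcl13 and the receptors Cxcr2, Cxcr3, Cxcr4 and Cxcr5. They were read by 12 of the 20380 probe sets that the array annotation pairs with exactly 1 gene symbol, which cover 12393 genes. The RNA came from splenocytes taken at day 10 from male mice of the DBA/1 strain (age 6 to 8 weeks), and 1 Affymetrix mouse GeneChip was hybridized for each group. The GPI-immunized group had received 300 μg of GPI-GST, human glucose-6-phosphate isomerase fused to glutathione S-transferase (89 kDa), which induces arthritis in this strain. The control group had received 100 μg of GST alone (26 kDa), and both proteins were given in complete Freund's adjuvant, so that both groups carried the adjuvant. These amounts correspond to 3.37 nmol and 3.85 nmol of protein. Spleens of 3 mice per group were harvested, and the sources used here do not say whether their RNA was pooled. A single array for each group allows neither a test nor a p-value, and each ratio describes these 2 arrays.

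The family falls into axes with different roles. Cxcl1 and Cxcl2, which carry a glutamate-leucine-arginine motif ahead of their first cysteines, attract neutrophils through Cxcr2, and NF-κB is a well-known activator of both genes. Cxcl9 and Cxcl10 are induced by interferons and attract activated T cells and NK cells through Cxcr3. Cxcl12 and Cxcl13 are made by stromal cells without inflammation. Cxcl12 holds leukocytes, neutrophils among them, in bone marrow through Cxcr4, and Cxcl13 draws B cells and follicular helper T cells into the follicles of the spleen through Cxcr5.

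The regions upstream of Cxcl1, Cxcl2 and Cxcl10 are shown because they hold κB motifs, the DNA letters that NF-κB recognizes. The sequences are from RefSeq (build GRCm38.p6), on the strand of the gene, 250 bases that end just before the transcription start. The motif searched was GGG, any 3 bases and TTCC on either strand, and capitals mark its matches.
Cxcl2, chr5:90903649-90903898, + strand: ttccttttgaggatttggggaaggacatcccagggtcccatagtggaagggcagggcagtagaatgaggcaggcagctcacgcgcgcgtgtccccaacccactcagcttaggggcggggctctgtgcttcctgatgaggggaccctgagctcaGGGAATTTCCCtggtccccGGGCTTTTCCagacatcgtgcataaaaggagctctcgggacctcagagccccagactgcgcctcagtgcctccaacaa
Cxcl1, chr5:90890995-90891244, + strand: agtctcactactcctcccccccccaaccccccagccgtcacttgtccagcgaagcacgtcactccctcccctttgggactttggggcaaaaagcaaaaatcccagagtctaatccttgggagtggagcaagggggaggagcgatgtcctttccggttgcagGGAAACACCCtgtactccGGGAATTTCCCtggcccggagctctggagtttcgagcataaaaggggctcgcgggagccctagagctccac
Cxcl10, chr5:92348890-92349139, - strand: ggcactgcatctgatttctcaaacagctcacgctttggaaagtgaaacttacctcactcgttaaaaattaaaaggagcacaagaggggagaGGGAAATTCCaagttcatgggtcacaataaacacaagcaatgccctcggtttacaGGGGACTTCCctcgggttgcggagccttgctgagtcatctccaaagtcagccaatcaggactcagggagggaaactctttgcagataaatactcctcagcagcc

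A promoter was found for 9 of the 10 members (all but Cxcr5), and the κB motif stood in 3 of them, against 4.65% of all 32851 promoters of the same length. Cxcl1 and Cxcl2 shared an unbroken stretch of 14 bases, GGGAATTTCCCTGG, which begins 71 bases before the start of Cxcl1 and 97 bases before that of Cxcl2. Within it the motif matched on both strands, and the matches overlap by all but 1 base at each end. Each of these genes had another match, 89 to 80 bases before the start of Cxcl1 and 78 to 69 bases before that of Cxcl2. The motif of interferon response elements (GAAA, any 2 bases, GAAA) was found in Cxcl10 alone of the members, and in 2.98% of all promoters. That of gamma-activated sites (TTC, any 3 bases, GAA), which 7.02% of all promoters held, was in 0 of the 9. These matches are letters only, and binding was not measured.

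The level of a transcript is read as the brightness of a probe set, summarized as 1 signal and deposited on a linear scale. As levels of background, 27 probe sets for bacterial genes that mouse RNA lacks had signals up to 14.1 for control and up to 7.2 for GPI-immunized splenocytes. The 50th percentile of all signals was 50.2, and a gene was counted only if 1 of its signals reached it, which left 6961 genes. Of the 10 members 6 reached this level, 2 (Cxcl10 and Cxcl13) lay between it and 14.1, and 2 (Cxcl1 and Cxcl12) were not above 14.1 on either array. Of the 6 counted members, 2 had ratios of GPI-immunized to control of 2 or more, as had 2.23% of all counted genes. At least 2-fold lower were 0 of these 6 members and 0.445% of all counted genes. The higher members were Cxcl2 and Cxcr2, both of the neutrophil axis. Cxcr2 was counted only through its signal on the GPI-immunized array, so its place in this count and among the ranked genes rests on the difference itself. Cxcl9 likewise was counted only through its control signal. The arrays were compared as deposited, although 17 of 18 probe sets for transcripts added as hybridization controls were dimmer on the GPI-immunized array (mean ratio 0.878). Of all genes past 2-fold, 83.3% were higher in GPI-immunized splenocytes, 70.3% with both arrays brought to the same median or quantiles, and 96.2% with the arrays scaled to these added controls.

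**Figure D1:**
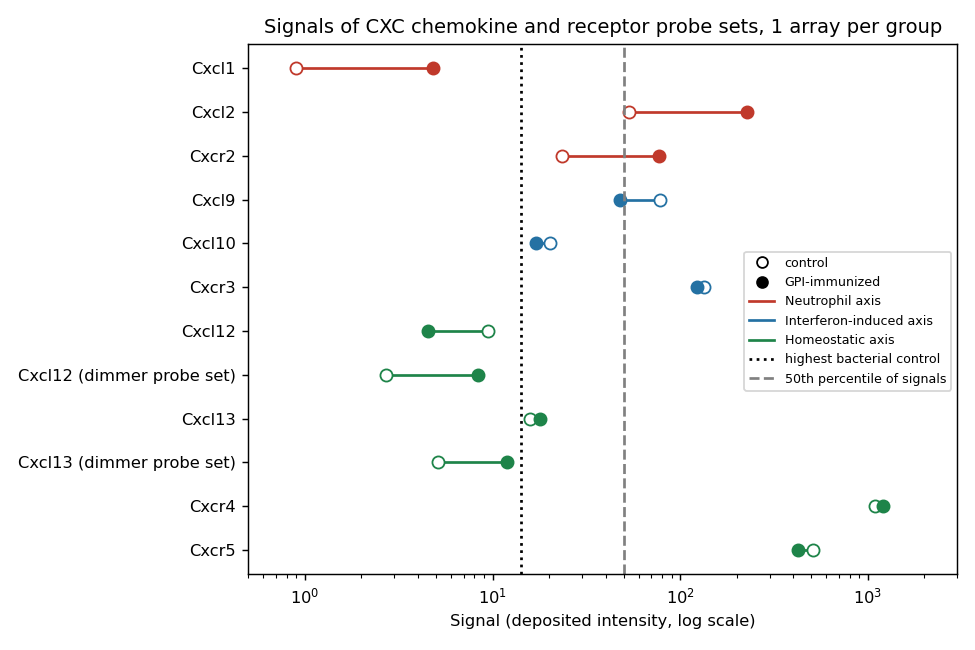
Deposited signals (horizontal axis, intensity on a log scale) of the 12 probe sets, with open circles for the control array, filled circles for the GPI-immunized array and colours for the axes; 1 array per group. Cxcl2 and Cxcr2 move to the right from 53.0 to 228.0 and from 23.5 to 76.6, the other receptors hardly move, and Cxcl1 and Cxcl12 lie left of the highest bacterial control signal (dotted line at 14.1).

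In the neutrophil axis, Cxcl2 (MIP-2, a chemokine of macrophages and neutrophils themselves; Entrez Gene 20310) had a signal of 53.0 in control and 228.0 in GPI-immunized splenocytes. The ratio of GPI-immunized to control was 4.30, or 2.10 on the log2 scale, the 11th highest of the 6961 genes. Cxcr2, the receptor by which neutrophils follow these chemokines (Entrez Gene 12765), had signals of 23.5 and 76.6, a ratio of 3.26, or 1.70 on the log2 scale, and ranked 26th. Higher ratios than those of Cxcl2 and Cxcr2 were seen for 0.144% and 0.359% of the counted genes. The other ligand, Cxcl1 (KC; Entrez Gene 14825), had signals of 0.9 and 4.8. Neither exceeds the bacterial controls, and therefore no ratio is given: a difference in Cxcl1 was not detectable on these arrays. Each gene of this axis has 1 probe set, so no second reading on the arrays exists.

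The spread between probe sets of the same gene served as a yardstick of measurement error. It holds no difference between mice, and no error of RNA preparation or of an array that moves all probe sets of a gene together. The SD of a log2 ratio was 0.22 above the 75th percentile of signals (219.8), 0.29 between the 50th and 75th percentiles and 0.54 between 14.1 and the 50th percentile. Only probe sets of a gene within the same signal range were compared. Disagreement between a bright and a dim probe set of a gene in different ranges is therefore left out. At its own mean signal, Cxcl2 lay 7.27 SD from a ratio of 1 and Cxcr2 3.18 SD. Their log2 ratios differed by 0.40, less than the spread of such a difference (SD 0.61), so their order is not settled. Next below came Cxcl13, and the step from Cxcr2 to it (1.54 on the log2 scale) was larger than the spread (SD 0.76).

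**Figure D2:**
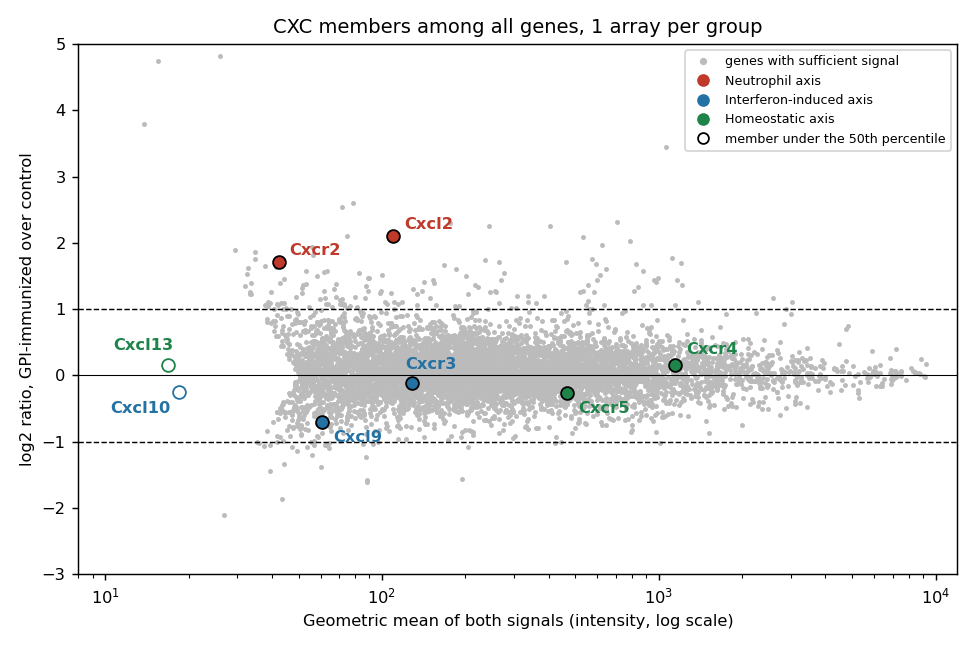
Log2 ratio of GPI-immunized to control (vertical axis) against the geometric mean of both signals (horizontal axis, log scale), 1 point per gene and 1 array per group; grey points are genes with a signal of at least 50.2, coloured points the 8 members above the bacterial controls, and dashed lines 2-fold ratios. Cxcl2 (2.10) and Cxcr2 (1.70) stand above the upper dashed line, and the other 6 members lie between the dashed lines.

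In the interferon-induced axis, all 3 members had ratios below 1 as deposited, Cxcl10 and Cxcr3 by less than the spread between probe sets. Cxcl9 (MIG, a chemokine induced by interferon-γ; Entrez Gene 17329) had signals of 77.9 and 47.7, a ratio of 0.612, or -0.71 on the log2 scale. This was 2.44 SD from a ratio of 1 and lower than the ratio of 98.1% of the counted genes, but short of 2-fold. Cxcl10 (IP-10; Entrez Gene 15945) was dim, with signals of 20.2 and 17.0, and its ratio of 0.842 lay within 1 SD of a ratio of 1. Their receptor Cxcr3 (Entrez Gene 12766) had signals of 134.1 and 123.2, a ratio of 0.919, also within 1 SD. Scaled to the added controls, Cxcr3 had a ratio of 1.05, so its direction is not settled, whereas Cxcl9 stayed between 0.573 and 0.697 and Cxcl10 between 0.790 and 0.958 under the 9 alternatives.

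In the homeostatic axis, the receptors were bright and nearly level. Cxcr4 (Entrez Gene 12767) had signals of 1085.4 and 1206.5, a ratio of 1.11, within 1 SD of a ratio of 1. Cxcr5 (Entrez Gene 12145), the receptor of follicular B and T cells, was read at 512.3 and 424.6, with a ratio of 0.829, or 1.21 SD below a ratio of 1. The chemokines of this axis were at or near the background. Cxcl13 (Entrez Gene 55985) had signals of 15.9 and 17.8 from its brighter probe set, a ratio of 1.12, and of 5.1 and 11.9 from the dimmer one, both under 14.1. The probe sets of Cxcl12 (Entrez Gene 20315) had signals of 9.5 and 4.5, and of 2.7 and 8.4. They pointed in opposite directions and did not exceed the bacterial controls, and no ratio is given. Of 12 measured stromal and follicular dendritic cell markers, 5 were under 14.1 on both arrays (Col1a1, Col3a1, Il7, Pdgfra and Pdgfrb) and 4 were counted, with a median log2 ratio of 0.26. The counted ones were Vcam1 (931.9 and 953.7), Mfge8 (66.2 and 39.2), Clu (47.4 and 66.5) and Ltbr (45.6 and 78.4). Mfge8 was counted only through its control signal, and Clu and Ltbr only through their signals on the GPI-immunized array. The part of stromal content in the signals of Cxcl12 and Cxcl13 was not tested.

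From Cxcl13 down to Cxcr5, members next to each other in the order of ratios (Cxcl13, Cxcr4, Cxcr3, Cxcl10, Cxcr5) differed by less than the spread between probe sets, and the step from Cxcr5 to Cxcl9 (0.44 on the log2 scale) was larger than it (SD 0.37). The mean log2 ratio of the neutrophil axis was 2.38 above that of the other 7 members. This value includes Cxcl1 and Cxcl12 at background level, and it was 2.08 without them and 1.42 with all signals raised to at least 14.1. Between receptors alone, the log2 ratio of Cxcr2 exceeded that of Cxcr4 by 1.55, that of Cxcr3 by 1.83 and that of Cxcr5 by 1.98.

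**Figure D3:**
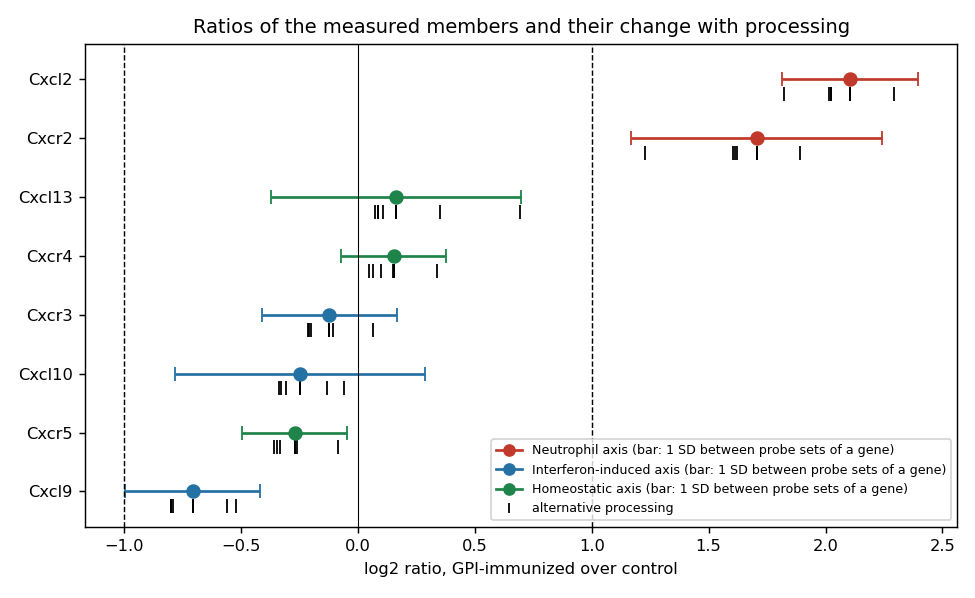
Log2 ratio of GPI-immunized to control (horizontal axis) of the 8 members above the bacterial controls, with bars of 1 SD between probe sets of one gene at that signal (no replicates; 1 array per group) and black ticks for 9 alternative ways of processing. Cxcl2 and Cxcr2 stay right of the 2-fold line (dashed) under each of them, Cxcl9 stays between the lower 2-fold line and a ratio of 1, and Cxcr3 has ticks on both sides of a ratio of 1.

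Markers of the cells that carry these receptors differed between the arrays as well. In whole splenocytes, fewer cells of a type and less RNA per cell cannot be told apart. Of 20 neutrophil markers 16 were measured, all with ratios above 1, and 8 were at least 2-fold higher, beside 2.23% of all counted genes. Their median log2 ratio was 1.03, against 0.056 for all counted genes. Their signals summed to 36447 (control) and 54029 (GPI-immunized), and 0 of them were under 14.1. Padi4 (ratio 2.60) was counted only through its signal on the GPI-immunized array. The furthest from 1 were the collagenase Mmp8 (3.28), the gelatinase Mmp9 (3.26), the surface protein Cd177 (3.20) and the formyl peptide receptor Fpr2 (2.86). The ratio of Cxcl2 was above those of all 16, and that of Cxcr2 above 14 of them, while that of Cxcr4 was below all 16. With an SD of 0.54 at its signal, the order of Cxcr2 among Mmp8, Mmp9, Cd177, Fpr2, Prtn3 (2.646) and Padi4 is not settled. Cxcr2 was also counted only through its signal on the GPI-immunized array. The order of Cxcr4 (1.11) and the neutrophil markers S100a9 (1.12), S100a8 (1.185), Ngp (1.315) and Chil3 (1.369) is not settled either. The part of neutrophil content in the ratios of Cxcl2 and Cxcr2 was not tested.

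Macrophages make Cxcl2 too. Of 15 measured monocyte and macrophage markers 13 were counted, with a median log2 ratio of 0.24, and 2 were at least 2-fold higher, the lipopolysaccharide co-receptor Cd14 (4.93) and the integrin Itgam (2.41), which neutrophils also carry. Their summed signals were 9009 and 11634. Cd14 was the only 1 of the 13 with a ratio above that of Cxcl2, and Marco and Siglec1 were under 14.1 on both arrays. Among genes of neutrophil retention and release, 4 of 10 counted were at least 2-fold higher (Mmp9, Ctsg, Itgam and Csf3r) and 0 were at least 2-fold lower. Mmp9 and Csf3r also stand in the list of neutrophil markers, and Itgam in that of monocytes and macrophages. Over all counted genes, 2.23% were at least 2-fold higher. Among the 10 counted, only Dpp4 (0.814), a protease that cleaves Cxcl12, had a ratio below 1. Csf3, the cytokine that mobilizes neutrophils, had signals of only 2.3 and 1.7, and Vcam1, an adhesion molecule that retains leukocytes, had a ratio of 1.02.

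Lymphocyte markers went the other way. All 9 counted B cell markers had ratios below 1, with a median log2 ratio of -0.51 and summed signals of 17831 and 13437 over the 10 measured. The other measured B cell marker, Pax5, had signals of 6.4 and 15.0, the former under 14.1. Of the counted ones only the low-affinity IgE receptor Fcer2a (0.491) was at least 2-fold lower, beside 0.445% of all counted genes. The log2 ratio of Cxcr5 was 0.24 above the B cell median. In the list of follicular helper T cell and germinal centre markers, the 5 other counted genes had higher ratios than Cxcr5, but 4 of them (Mef2b, Gcsam, Fas and Icos) were counted only through their signal on the GPI-immunized array, so that this says nothing of Cxcr5. The transcription factor Mef2b had signals of 3.0 and 80.5 (5.71-fold higher with the former raised to 14.1) and the germinal centre gene Gcsam 23.4 and 73.0. Bcl6, a transcription factor of both cell types, had signals of 166.1 and 232.0, above 50.2 on both arrays. Of 11 counted T cell markers 9 had ratios below 1 and 0 were at least 2-fold lower (median log2 ratio -0.46, summed signals 2013 and 1499 over 12 genes). Cxcr3 lay 0.34 above this median and 0.11 above that of 9 NK cell markers (-0.23, summed signals 1166 and 995 over 10 genes). The gap of 0.11 is under the SD of 0.29 at the signal of Cxcr3. Of the NK cell markers, Tbx21 (73.8 and 49.5) and Klrk1 (56.9 and 43.6) were counted only through their control signals. These medians thus depend in part on the filter, that of the T cell markers through Icos. Cxcr4, which both B and T cells express, had a ratio above those of all 9 B cell and all 11 T cell markers. Its order against the highest of each list is not settled by the spread between probe sets. These are Ms4a1 (0.920) and Blnk (0.908) for B cells, and Icos (1.065) and Zap70 (1.028) for T cells. The part of cell content in these ratios was not tested.

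**Figure D4:**
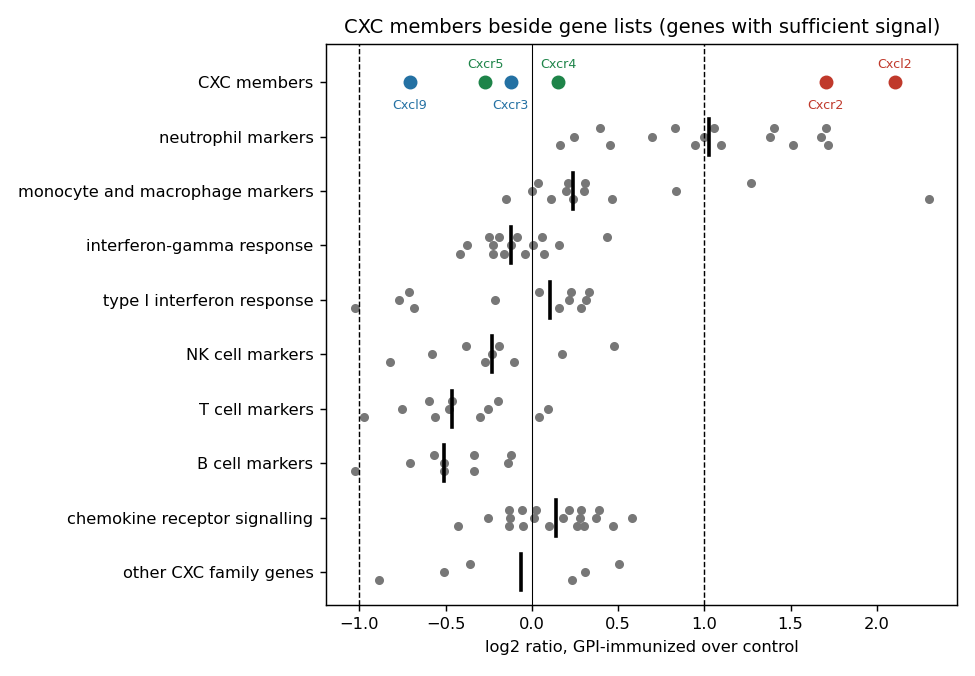
Log2 ratio of GPI-immunized to control (horizontal axis) of the 6 members with sufficient signal (top row, coloured by axis) and of the genes of 9 lists with sufficient signal (grey, 1 point per gene; vertical bars are medians; 1 array per group; dashed lines are 2-fold ratios). Cxcl2 and Cxcr2 lie at or beyond the upper end of the neutrophil markers, whose median is 1.03. Cxcl9, counted only through its control signal, lies to the left of every gene of the interferon-γ list.

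Interferon-γ response genes, which share their inducer with Cxcl9, were close to level. Of 18 measured 15 were counted, and 0 were 2-fold higher or lower (median log2 ratio -0.12, which became 0.064 with the arrays scaled to the added controls). They ranged from the class II transactivator Ciita (0.749) to the receptor chain Ifngr2 (1.35). All 15 had higher ratios than Cxcl9, whose log2 ratio lay 0.58 below their median. Cxcl9 was counted only through its control signal, as was Gbp7 (58.9 and 49.6) of the list, so its place below them depends in part on the filter. With an SD of 0.29 for each of these genes, the order of Cxcl9 against Ciita and Cd274 (0.7695) is not settled. Of 12 counted genes of the type I interferon response 0 were 2-fold higher and 1, Mx1 (0.492), was 2-fold lower, beside 0.445% of all counted genes. Mx1 and Ifit3 (63.0 and 38.4) were counted only through their control signals. Below 1 were also the antiviral genes Bst2 (0.587), Ifit3 (0.610), Rsad2 (0.623) and Ifit2 (0.861). The other 7 counted genes had ratios above 1, up to that of the transcription factor Irf7 (1.26), and the median log2 ratio was 0.10, or -0.11 averaged over probe sets.

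Of 17 other genes of the CXC and related families, 15 were measured and 6 counted, of which 0 were 2-fold higher or lower (median log2 ratio -0.061, which became 0.24 without probe sets shared by several transcripts). The lowest was Cxcr6, a receptor of memory and NKT cells, read at 69.0 and 37.4 (ratio 0.542). Its other probe set gave 28.2 and 16.6, a ratio of 0.589. Xcl1 (lymphotactin, from T and NK cells) had a ratio of 0.701 and the scavenging receptor Ackr1 0.780. Cxcr6 and Xcl1 (70.0 and 49.1) were counted only through their control signals. The platelet chemokines Ppbp and Pf4 had ratios of 1.42 and 1.24, beside a median log2 ratio of 0.40 for 4 counted megakaryocyte and platelet markers that include them. Cxcl16, the ligand of Cxcr6, had a ratio of 1.18 and 1.14 by its other probe set. It was counted only through its signal on the GPI-immunized array (44.6 and 52.5). The ratios of Cxcr6, Xcl1 and Cxcl16, and with them the list median, thus depend in part on the filter. Below the level for counting lay Cx3cr1 (1.20), Xcr1 (0.850), Ackr3, the scavenger of Cxcl12 (0.703), and Cxcl17 (signals of 5.6 and 16.2). The control signal of Cxcl17 is under 14.1 and its other signal little above it, so a difference in Cxcl17 is not settled. The neutrophil chemokine Cxcl5 (4.4 and 0.3), Cxcl11, Cxcl14, Cxcl15 and Cx3cl1 were not above 14.1 on either array. Cxcl3 and Cxcr1 were not analysed here.

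Downstream of Cxcr2, Cxcr3, Cxcr4 and Cxcr5 lie Gi proteins, phosphoinositide 3-kinase, Rac and arrestins. Of 23 measured genes of this signalling 20 were counted. Their median log2 ratio was 0.14, and 0 of them reached 2-fold in either direction. The lowest ratio was that of the kinase Ptk2b (0.742), and the highest that of the myeloid Src family kinase Fgr (signals of 216.9 and 324.3). The G protein subunit Gnb2 (1.39) and the kinase Pik3cg (1.31) followed Fgr. Below the level for counting, Plcb3 (15.9 and 28.7) and Plcb2 (24.9 and 43.6) had larger ratios than Fgr, 1.805 and 1.751. The receptor Cxcr2 and its ligand Cxcl2 had larger ratios than each of the 20 counted genes of the shared signalling machinery. Cxcr2 itself was counted only through its signal on the GPI-immunized array.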

How the data were processed

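Splenocyte RNA was read on 1 array per group. The authors deposited intensities on a linear scale, 1 per probe set, made with gene expression software. The sources used here do not give how probes were summarized or arrays scaled, and the medians (48.65 control, 51.8 GPI-immunized) differ. Probe sets were named by the platform annotation, those with 1 symbol only. A gene was represented by its brightest probe set (mean of log2 signals), and 3 signals of 0 were set to 0.1. Ratios were taken without further scaling, and counted at 2 or 0.5 where 1 signal reached the 50th percentile.

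The members and the 19 gene lists were chosen with earlier results of these data known. Of 240 list entries 201 were measured, 2 under an older symbol. Named from a list are at most 4 genes furthest from a ratio of 1, beside single genes chosen after their values were seen. The number of arrays limits the precision. The counting code was run on simulated data with the same spread for every gene. That checks the code only, not how precise the ratios given here are. Alternatives were 3 scalings, 2 floors, 16 added to each signal, 2 choices of probe sets, other filters and a 1.5-fold threshold. Scaling to the added controls and leaving out background members were chosen after seeing the data. Calculations used Python 3.11.15 with pandas 2.3.3, numpy 2.4.6, statsmodels 0.14.6 and scipy 1.17.1; matplotlib 3.10.9 drew the plots.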

Additional observations from a re-analysis of the deposited data

How the results depend on the processing

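Cxcl2 and Cxcr2 were the members counted as at least 2-fold higher under the 3 other scalings, both floors, the added 16, both choices of probe sets, the 1.5-fold threshold and the scaling to the added controls. Their ratios ran from 3.54 to 4.90 and from 2.34 to 3.71, lowest with 16 added. With the filter at the 75th percentile the count was 1 (Cxcl2), since Cxcr2 is too dim for it, and without a filter it was 3, with Cxcl1 at background level. The count of lower members was 1 without a filter (Cxcl12, at background level) and 1 at 1.5-fold (Cxcl9). The lead of the neutrophil axis over the other members, 2.38 on the log2 scale, was 2.08 without Cxcl1 and Cxcl12, 1.42 with the floor at the highest bacterial control signal, 1.46 with the floor at the 25th percentile and 1.28 with 16 added. Averaged over both probe sets, Cxcl13 had a ratio of 1.62. Scaling to the added controls multiplied every ratio by 1.14 and moved the median log2 ratio of all counted genes by 0.19. It turned the sign of the medians of the interferon-γ, dendritic cell, erythroid and other CXC lists. The last, -0.061, also became 0.24 without probe sets shared by several transcripts, the only list median to move by more than the spread. Over all genes, the 155 higher and 31 lower became 70 and 5 when a signal at the 75th percentile was required, 1266 and 1105 when no signal level was required, 491 and 225 at 1.5-fold, 102 and 10 with 16 added, 253 and 10 scaled to the added controls, and 111 and 47 after division by the median. No paired analysis was possible because each group has 1 array.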

Other observations

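Other cell types were measured by few markers. Of 4 counted dendritic cell markers 0 were 2-fold higher or lower (median log2 ratio -0.15), and the lowest ratio was that of Ccr7, a chemokine receptor that guides dendritic cells and T cells to lymph nodes (signals of 542.6 and 348.0, ratio 0.641). Both counted endothelial markers had ratios below 1, Pecam1 (0.758) and the scavenger receptor Stab2 of splenic sinuses (0.651). Of 5 counted erythroid markers 0 were 2-fold higher or lower (median log2 ratio -0.094), from the anion exchanger Slc4a1 (0.789) to the transferrin receptor Tfrc (1.16), and Hba-a1 was under 14.1 on both arrays.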
